A study of Homo sapiens with 15 samples.

Results

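A set of 35 genes of the antioxidant and iron-handling programme linked to the transcription factor NRF2 was followed through 5 conditions of the human osteosarcoma line 143B. The set was given by symbol and comprises NRF2 itself (NFE2L2) and its inhibitor KEAP1, NRF2 target enzymes, glutathione genes, thioredoxin and peroxiredoxin genes, catalase, superoxide dismutases and iron genes. All 35 were found among the 62700 genes of each of 2 count tables, and 32 held enough reads to be tested in both. RNA was sequenced from 15 libraries, 3 per group. Unmodified 143B cells were grown either attached in DMEM with fetal bovine serum and sodium pyruvate (non-OSC) or as tumorspheres in DMEM/F12 with B27 without vitamin A, EGF and basic FGF (OSC, osteosarcoma stem cells). A separate set of OSC cultures carried a lentiviral control (shCtrl) or 1 of 2 lentiviral hairpins against PDK1 (shPDK1#1, shPDK1#2), the kinase that restrains pyruvate dehydrogenase. The question asked of the first set was what distinguishes sphere from adherent cells, and of the second, which genes move when PDK1 is reduced. Growth format, serum and medium change together between non-OSC and OSC and cannot be told apart. The B27 formula itself includes transferrin, selenium and antioxidants. All cells were of 1 line, and nothing in the labels says that the libraries of a group came from separate cultures, so the p-values measure the spread between these libraries.

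In unstressed cells KEAP1 presents NRF2 for degradation. Oxidants and electrophiles disable KEAP1, and NRF2 then pairs with small MAF proteins on antioxidant response elements, where BACH1 otherwise represses transcription. The targets make and recycle glutathione, drive the thioredoxin and peroxiredoxin relay that removes peroxide, and break down heme. Iron is governed in parallel by RNA: when iron is scarce, iron regulatory proteins bind hairpins called iron-responsive elements, which blocks translation of the ferritins and protects the transferrin receptor transcript from decay.

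The sequences behind these control routes are shown for the members whose levels are described first. Iron-responsive elements were searched as a C, then 5 bases, then a loop of CAGTG followed by A, C or T, then 5 bases that pair with those before the loop. Among GENCODE 44 transcripts, 1.64% of 20046 protein-coding genes held such a match. The following 30-base stretches on GRCh38 carry the loop in capitals. The FTH1 (chr11:61967573-61967602, minus strand), FTL (chr19:48965335-48965364, plus strand) and SLC40A1 (chr2:189580660-189580689, minus strand) stretches lie before the coding sequence, and the 4 of TFRC lie after it (minus strand; chr3:196050978-196051007, chr3:196050574-196050603, chr3:196050509-196050538 and chr3:196050462-196050491, numbered 1 to 4 below).
FTH1: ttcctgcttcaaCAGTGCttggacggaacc
FTL: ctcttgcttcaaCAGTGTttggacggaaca
SLC40A1: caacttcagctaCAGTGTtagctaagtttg
TFRC 1: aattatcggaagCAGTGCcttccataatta
TFRC 2: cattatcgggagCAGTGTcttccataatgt
TFRC 3: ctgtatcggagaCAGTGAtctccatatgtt
TFRC 4: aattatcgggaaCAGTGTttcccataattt
A further match lay in a noncoding transcript of TXNRD2. The search used letters and pairing alone, and protein binding was not measured at any of these stretches.

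Promoter windows from 250 bases before to 50 after a gene start were taken from RefSeq (GRCh38.p14), where 27 of the 35 members had 38 windows. The antioxidant response element core (TGAC, any 3 bases, then GC), searched on both strands, stood in 4 of these 38 windows (10.5%) and in 13.3% of all 35116 windows. The matches belonged to GCLM, TXNRD1 and KEAP1. No window was found for HMOX1, FTH1, GSR, GSS, TXN2, PRDX1, PRDX6 and SOD1, so these genes were not searched. The windows of GCLM (chr1:93909381-93909680, minus strand) and of the upstream TXNRD1 start (chr12:104215529-104215828, plus strand) are shown with the matches in capitals. Both genes are classical NRF2 targets, and they were chosen because both move below. KEAP1, whose window with 2 matches is not shown, passed in no comparison. A link between the motif and movement was not tested. The match in GCLM begins 34 bases before the start, and those in TXNRD1 begin 99 and 8 bases before it.
GCLM: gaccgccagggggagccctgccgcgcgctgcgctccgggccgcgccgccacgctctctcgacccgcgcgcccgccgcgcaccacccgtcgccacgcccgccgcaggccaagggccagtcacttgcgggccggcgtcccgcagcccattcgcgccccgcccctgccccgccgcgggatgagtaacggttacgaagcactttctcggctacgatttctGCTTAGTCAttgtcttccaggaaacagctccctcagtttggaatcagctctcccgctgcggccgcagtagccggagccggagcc
TXNRD1: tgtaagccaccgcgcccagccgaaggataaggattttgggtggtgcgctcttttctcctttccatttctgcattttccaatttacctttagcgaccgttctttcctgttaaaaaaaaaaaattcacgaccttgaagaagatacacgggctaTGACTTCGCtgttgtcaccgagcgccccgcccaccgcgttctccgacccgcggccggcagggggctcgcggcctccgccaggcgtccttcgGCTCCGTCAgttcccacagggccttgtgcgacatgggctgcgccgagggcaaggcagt

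TXNIP, which binds and inhibits thioredoxin, is known as a glucose-responsive gene driven through paired E-box-like letters. The pattern CACGNG, any 5 bases, CACGNG was found in 20 of all windows (0.057%), on either strand, and in 1 member window, that of TXNIP (chr1:145996530-145996829, minus strand), beginning 88 bases before the start. The match is in capitals.
TXNIP: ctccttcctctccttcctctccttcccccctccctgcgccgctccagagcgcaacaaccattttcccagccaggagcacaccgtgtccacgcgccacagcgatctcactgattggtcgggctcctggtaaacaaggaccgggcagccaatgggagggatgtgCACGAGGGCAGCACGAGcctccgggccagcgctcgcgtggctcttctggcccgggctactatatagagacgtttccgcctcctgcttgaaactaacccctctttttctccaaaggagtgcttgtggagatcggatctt

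The libraries held between 7992499 and 11256536 counts each, and the libraries of each group differed by more than counting noise. PDK1 stood at 28.0 CPM (counts per 1000000, TMM-normalized) on average with shPDK1#1, at 19.8 CPM with shPDK1#2 and at 45.2 CPM with shCtrl. The hairpin means are 62.0% and 43.8% of the control mean, without overlap. Of 9 osteoblast-lineage and mesenchymal markers, SP7 and IBSP were at or under 3 counts in every library, and the summed level of the list was 4793–5043 CPM in non-OSC and 7609–8108 CPM in OSC libraries. PTPRC, CD3D, CDH5, CDH1 and HBB, markers of leukocytes, endothelium, epithelium and erythroid cells, were at or under 3 counts throughout. The 5 leukocyte markers summed to 60.75–68.98 CPM in non-OSC and 55.64–57.62 CPM in OSC libraries, nearly all of it CD68, a lysosomal protein also made by other cells, and of the 2 tested 1 was lower in OSC. The 3 epithelial markers summed to 2.64–4.24 and 2.29–3.45 CPM, and the endothelial and erythroid sums were under 2 CPM. The part of these markers in the results was not tested. In bulk RNA, fewer cells of a kind and less RNA per cell cannot be told apart.

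Per kilobase of the canonical transcript, the scale on which genes can be compared with one another, ferritin and PRDX1 transcripts headed the set in every group. In non-OSC the order was FTL (mean 748.5 CPM per kb), FTH1 (480.8) and PRDX1 (442.4), with GPX1 next at 237.7. The libraries of FTH1 and PRDX1, at 443.9–512.1 and 424.7–453 CPM per kb, overlapped, so these neighbours did not differ beyond their spread. HMOX1 was at rank 30 in non-OSC with a mean of 7.83 CPM per kb and at rank 4 in OSC with 217 CPM per kb. SLC40A1, the iron exporter, had group means of 0.754–1.17 CPM per kb. SOD3, the extracellular superoxide dismutase, held 0 or 1 count, AKR1C1 1 to 12 and AKR1C2 0 to 6 counts per library, and these 3 were not tested. AKR1C1 and AKR1C2 share sequence in 18.3% and 26% of their 75-base stretches, so the split of those few reads between them is uncertain.

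Among the tested members, HMOX1 and TFRC had the largest log2 fold changes between spheres and adherent cells. HMOX1 (heme oxygenase 1, which frees iron from heme) was 27.7-fold higher in OSC, and TFRC (the transferrin receptor, which brings iron in) was reduced to 22.1% of its adherent level. TXNIP and CAT, the peroxide-destroying catalase, were also higher. TXN2, TXNRD2 and PRDX3, grouped here as the mitochondrial thioredoxin system, were lower, at 51.0–59.2% of the adherent level. NFE2L2 and KEAP1 did not pass the test. In all, 26 of the 32 tested members passed (edgeR quasi-likelihood test, Benjamini-Hochberg adjusted p under 0.05), 9 higher and 17 lower. The background was high, since 63.9% of the 14287 genes tested passed (32.4% higher, 31.5% lower), and 72.3% among genes with a mean of at least 10 CPM, where 83.3% of members did. The median log2 fold change of the tested members was -0.19, and that of all genes -0.0053. Every OSC library lay on the same side of every non-OSC library for 26 of the 32 tested members, the same 26 that passed. Over all genes tested, called or not, this was so for 66.9%.

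**Figure D1:**
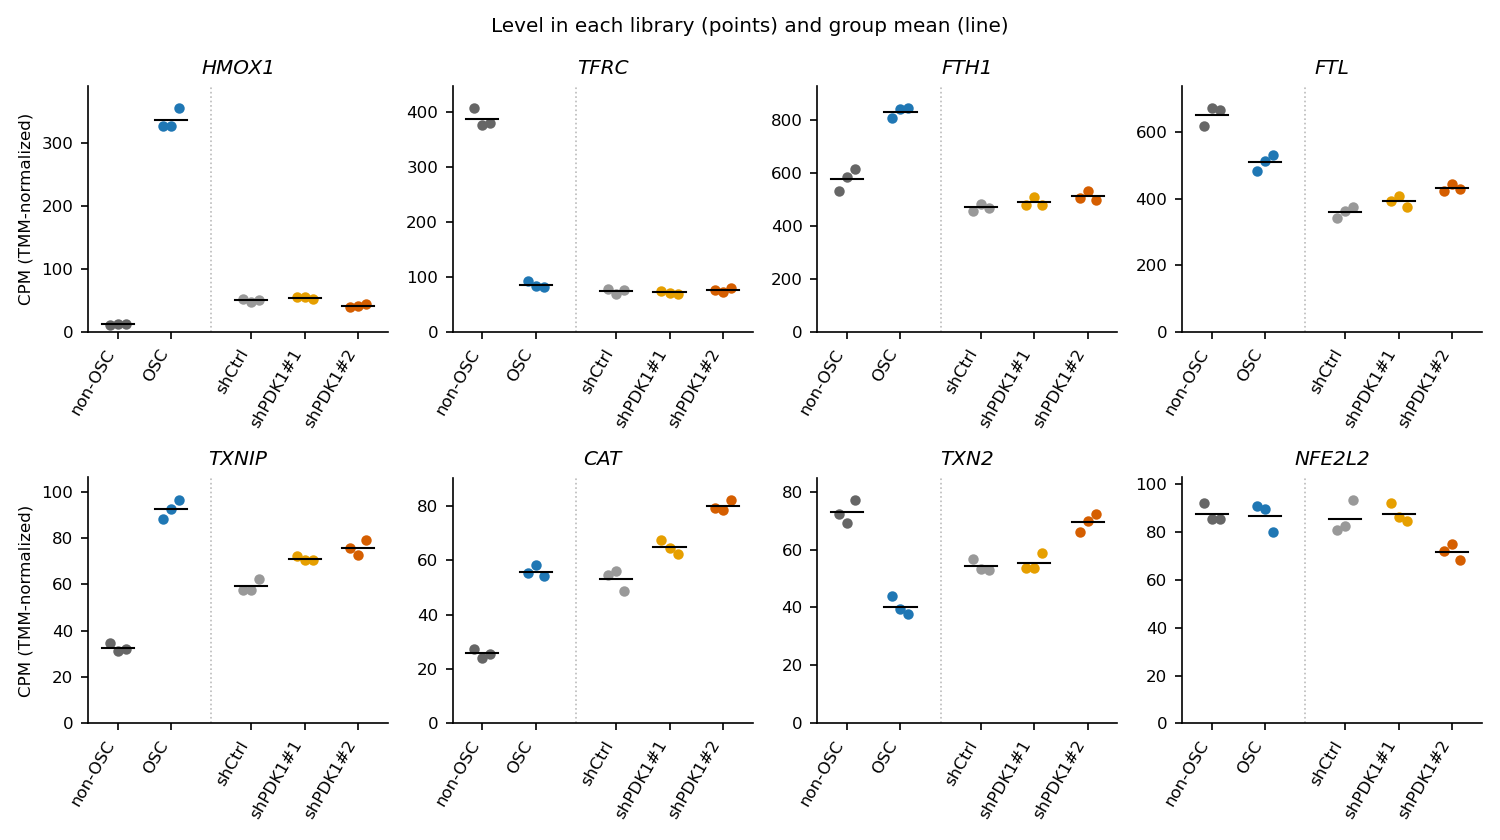
Level of 8 members in each library (points; CPM, TMM-normalized, linear axis from 0) with the mean of the 3 libraries of each group (line). The dotted line parts the 2 tables, which were normalized separately. HMOX1 goes from about 12.2 to 338 CPM between non-OSC and OSC, TFRC goes from 388 to 85.9, and the 3 shPDK1#2 libraries of NFE2L2, at 68.1–74.8 CPM, lie below those of shCtrl and shPDK1#1.

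The regulators did not pass the test between spheres and adherent cells. NFE2L2 (ENSG00000116044.17, chr2:177218667-177392756) stood at 91.8, 85.2 and 85.2 CPM in non-OSC and at 90.7, 89.4 and 79.7 CPM in OSC libraries. KEAP1 stood at 63.7, 80.6 and 71.5 CPM in non-OSC and at 66.4, 65.2 and 78.4 CPM in OSC. For both genes the groups overlapped, with log2 fold changes of -0.013 ± 0.067 (SE; adjusted p 0.879 by edgeR quasi-likelihood) and -0.038 ± 0.086 (0.713). NRF2 is regulated chiefly as a protein, which was not measured here. NFE2L2 counts carry a limit, because 15.1% of its exon stretches of 75 bases are shared with an overlapping gene; with that gene's reads added it did not pass either.

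HMOX1 (ENSG00000100292.18, chr22:35380361-35394214) stood at 11.5, 13.1 and 11.9 CPM in non-OSC and at 328, 328 and 356 CPM in OSC libraries. No library of one group came near the other. The log2 fold change was 4.79 ± 0.085 (adjusted p 3.04e-22). Of the 4 other target enzymes tested, 1 passed. NQO1, the quinone reductase often used as an NRF2 readout, averaged 110 and 120 CPM with overlapping libraries (log2 fold change 0.12 ± 0.062, adjusted p 0.092). It passed, as higher in OSC, under library size alone (adjusted p 0.0302) and with a replicate block (0.0451). The aldo-keto reductases AKR1B1 and AKR1C3 had log2 fold changes of -0.016 and -0.12 without passing. OSGIN1, an oxidative-stress-induced growth inhibitor of low abundance, rose from 1.74, 4.27 and 3.86 to 9.36, 10.02 and 9.54 CPM (log2 fold change 1.57 ± 0.25, adjusted p 7.24e-06). With the reads of MLYCD, with which it overlaps, added, its log2 fold change was 0.87. It was named after its values were seen, since it lies under the 10 CPM limit for named genes.

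Iron genes moved in opposite directions. TFRC (ENSG00000072274.14, chr3:196012511-196082153) stood at 407, 376 and 381 CPM in non-OSC and at 92.4, 83.3 and 81.9 CPM in OSC libraries, a clear gap (log2 fold change -2.18 ± 0.056, adjusted p 2.2e-18). FTH1, the ferroxidase ferritin heavy chain, rose from 534, 585 and 616 CPM to 809, 841 and 845 CPM (0.52 ± 0.046, adjusted p 2e-09). FTL, the light chain, fell from 618, 672 and 666 CPM to 484, 514 and 530 CPM (-0.36 ± 0.045, adjusted p 5.24e-07). Between these groups the transcripts of ferritin's 2 chains thus moved apart. The per-length ratio of FTH1 to FTL went from 0.626–0.669 in non-OSC to 1.154–1.211 in OSC libraries. In the shCtrl spheres of the separately normalized hairpin set, FTH1 averaged 470 CPM and the ratio was 0.906–0.967. What separates the sphere sets was not tested. SLC40A1 did not pass (-0.38 ± 0.34). FTH1 shares 13.8% of its stretches with pseudogenes and 63.2% of its exons face an opposite-strand gene; adding pseudogene reads left its log2 fold change at 0.52, and whether counting used strand is not given in the sources used here. Iron-responsive elements act on translation or decay, and neither was measured.

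In the wider iron list, 20 of 26 tested genes passed (76.9%, where 63.9% of all genes did), 5 higher and 15 lower, with a median log2 fold change of -0.21. The largest falls were in STEAP1 (-1.43) and STEAP2 (-0.86), ferrireductase-family proteins, and in ACO1 (-0.94), which doubles as iron regulatory protein 1 and went from 164.5, 160 and 160 CPM to 88.8, 79.9 and 83.3 CPM. CYBRD1, a ferrireductase (0.43), BLVRB, a biliverdin reductase (0.36), and FBXL5, an iron sensor that removes iron regulatory protein 2 (0.31), were higher.

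Glutathione genes moved a little and unevenly. GCLC, the catalytic subunit of glutamate-cysteine ligase, was higher (41.4 to 51.2 CPM, log2 fold change 0.30 ± 0.087), while GCLM, its modifier subunit, was lower (85.1 to 69.2 CPM, -0.30 ± 0.064). GSS, glutathione synthetase, and GSR, glutathione reductase, fell by 0.41 and 0.29 on the log2 scale. GPX8, a peroxidase of the endoplasmic reticulum, stood at 44.1, 38.9 and 39.7 CPM in non-OSC and at 28.9, 29.0 and 31.5 CPM in OSC libraries, which did not overlap (-0.46 ± 0.090, adjusted p 0.000135). GPX1 fell by 0.25 and GPX4, which reduces lipid peroxides in membranes, by 0.26 on the log2 scale.

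The 3 members grouped here as the mitochondrial thioredoxin system fell in spheres. The fall holds for these 3 genes as grouped, and not for every peroxiredoxin. PRDX5, placed here with the other peroxiredoxins and outside that group, rose from 112.7 to 146.2 CPM (log2 fold change 0.38). TXN2, mitochondrial thioredoxin (ENSG00000100348.10, chr22:36467046-36481640), stood at 72.3, 69.1 and 77.1 CPM in non-OSC and 43.9, 39.4 and 37.8 CPM in OSC. TXNRD2, its reductase, stood at 29.99, 35.8 and 37.3 CPM in non-OSC and 17.7, 17.1 and 17.8 CPM in OSC. PRDX3, a peroxiredoxin that TXN2 serves, stood at 177, 172 and 162 CPM in non-OSC and 101, 101 and 101 CPM in OSC. All 3 were lower in every OSC library than in any non-OSC library, with log2 fold changes of -0.85 ± 0.079, -0.97 ± 0.11 and -0.76 ± 0.055. Their cytosolic counterparts fell too. TXNRD1 fell from 306, 280 and 295 CPM to 204, 203 and 205 CPM (-0.53 ± 0.048, adjusted p 3.31e-09), TXN by 0.20 and PRDX1 by 0.11 on the log2 scale, PRDX1 with an adjusted p of 0.0317 that was lost when any of 4 single libraries was left out. Differences between the compartments were not tested.

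**Figure D2:**
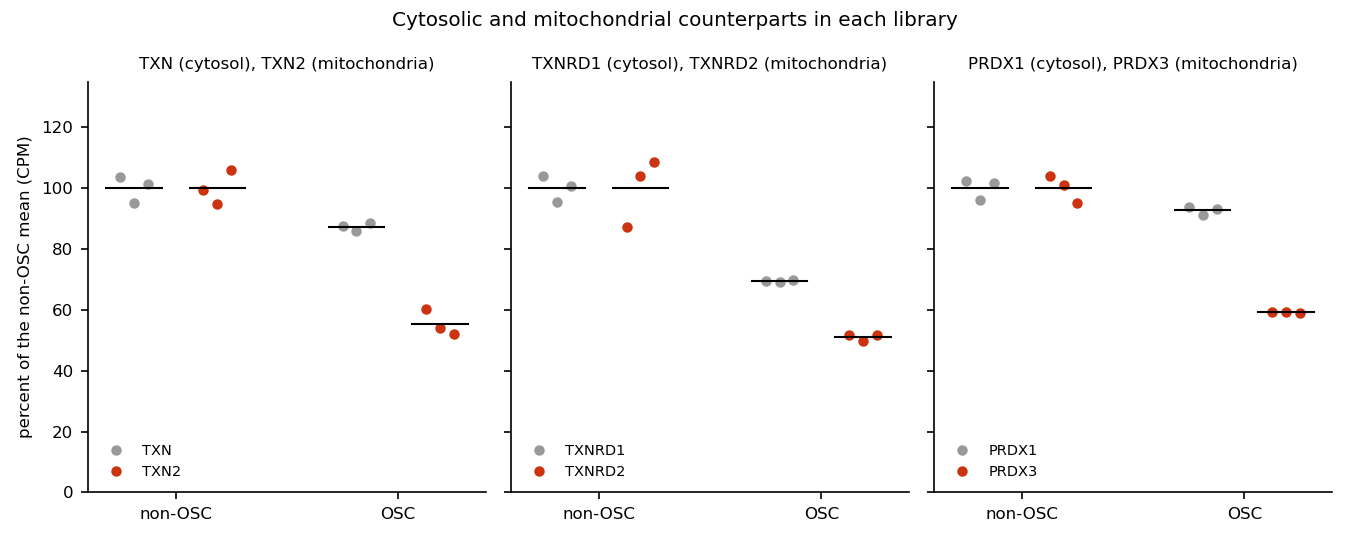
TXN, TXNRD1 and PRDX1 (grey) beside TXN2, TXNRD2 and PRDX3 (red) in each non-OSC and OSC library, as percent of the gene's non-OSC mean (points) with group means (lines). In OSC, TXN2, TXNRD2 and PRDX3 stand at 51.0–59.2% and TXN, TXNRD1 and PRDX1 at 69.5–92.8% of the non-OSC mean.

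TXNIP (ENSG00000265972.6, chr1:145992435-145996579) stood at 34.6, 31.1 and 31.9 CPM in non-OSC and at 88.1, 92.3 and 96.4 CPM in OSC libraries (log2 fold change 1.5 ± 0.075, adjusted p 1.42e-13). CAT (ENSG00000121691.7, chr11:34438934-34472060) stood at 27.3, 24.2 and 25.7 CPM in non-OSC and at 55.2, 58.1 and 54.1 CPM in OSC (1.12 ± 0.086, adjusted p 1.84e-10). For both genes all OSC libraries lay above all non-OSC libraries. SRXN1, sulfiredoxin, which restores over-oxidized peroxiredoxins, fell by 0.36 on the log2 scale, and SOD1, the cytosolic superoxide dismutase, by 0.22. Peroxiredoxins other than PRDX3 were mixed: PRDX5 (0.38), PRDX2 (0.26) and PRDX4 (0.25), which lies in the endoplasmic reticulum, were higher, and PRDX6 fell by 0.19. The PRDX4 call was lost without non-OSC replicate 3 or OSC replicate 2, and the PRDX6 call without OSC replicate 2. SRXN1 shares 90.5% of its stretches with a read-through gene that held almost no reads, and adding those reads did not change its call.

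Of the other redox enzymes, 22 of 41 passed (53.7%, where 63.9% of all genes did), 12 higher and 10 lower. Among those with a mean of at least 10 CPM, GLRX, glutaredoxin (1.64), SESN3, a sestrin (1.21) and ERO1A, an oxidase that forms disulfides in the endoplasmic reticulum (1.12), rose most, and CHAC1, which degrades glutathione (-1.08), MGST1, a microsomal glutathione transferase (-0.82) and GGCT (-0.54) fell most. Of the NRF2 partners and further targets, 18 of 26 passed (69.2%), 15 higher and 3 lower, with a median log2 fold change of 0.31. The repressor BACH1 went from 43.4, 38.2 and 41.1 to 128, 123 and 118 CPM (1.58). SQSTM1, an autophagy receptor that binds KEAP1, went from 165, 168 and 162 to 476, 490 and 490 CPM (1.56). MAFK, a small MAF partner, rose from a mean of 91.4 to 206 CPM (1.17). In the separately normalized shCtrl spheres MAFK averaged 90.6 CPM, BACH1 96.1 CPM and SQSTM1 293 CPM. What separates the sphere sets was not tested. SLC3A2 (-0.30), a subunit of the cystine carrier, CBR1 (-0.25) and ABCC1 (-0.19) were the 3 that fell.

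**Figure D3:**
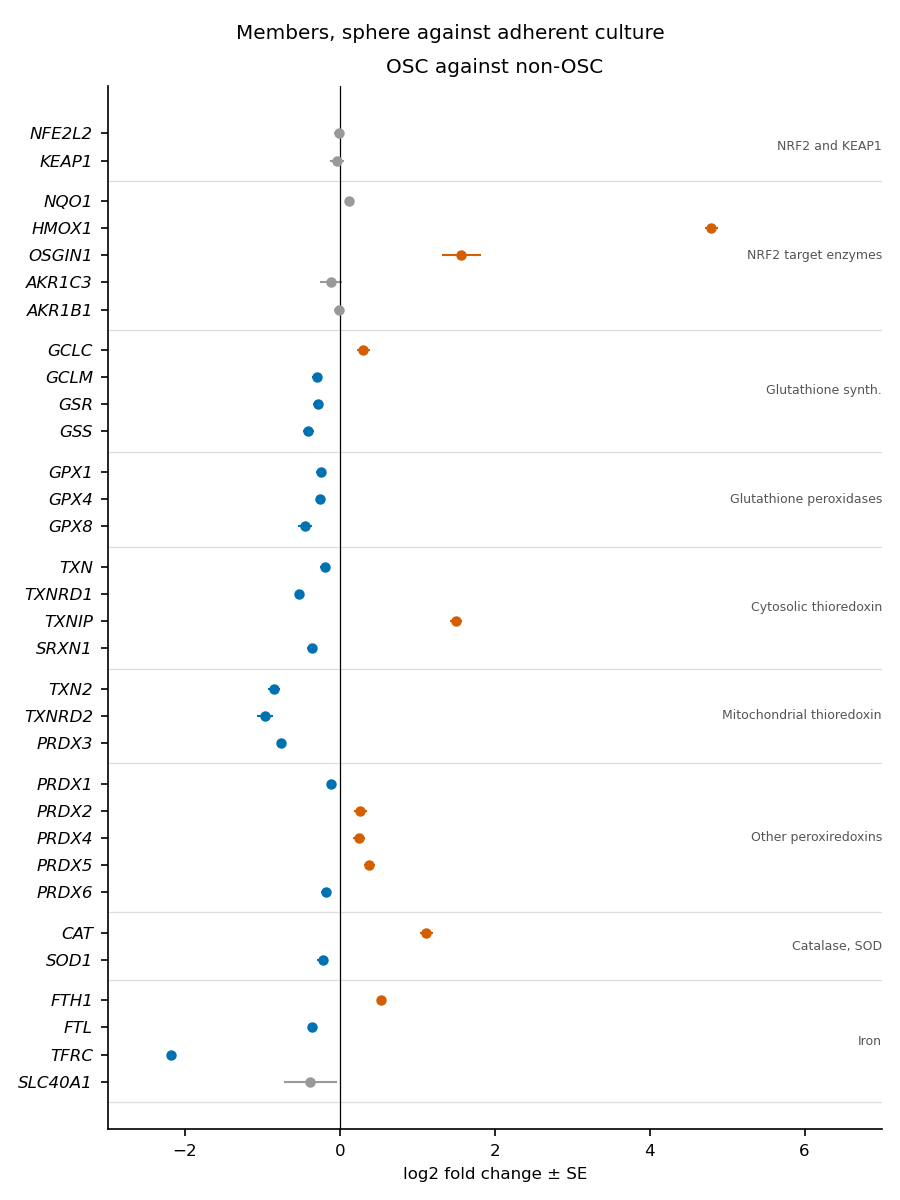
Log2 fold change of OSC against non-OSC (point) ± SE (bar) for the 32 tested members, grouped by role; orange passed higher, blue passed lower, grey did not pass. HMOX1 lies far to the right at 4.79 and TFRC to the left at -2.18, and TXN2, TXNRD2 and PRDX3 lie between -0.97 and -0.76.

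With PDK1 reduced in spheres, catalase and TXNIP were higher with either hairpin, and the stronger hairpin also had lower NFE2L2 and HMOX1. The hairpin comparisons share the 3 shCtrl libraries, so their values are set side by side. With shPDK1#1, 2 of the 32 tested members passed, CAT and TXNIP, both higher, while 3.06% of the 14574 genes tested passed (1.62% higher, 1.44% lower). With shPDK1#2, 15 of 32 passed, 9 higher and 6 lower, against 26.2% of all genes (12% higher, 14.2% lower). Among genes with a mean of at least 10 CPM, 33.1% of all and 50% of members passed with shPDK1#2, and 4.11% and 6.67% with shPDK1#1. The members' median log2 fold change was 0.055 with shPDK1#1 and 0.03 with shPDK1#2, beside 0.0024 and 0.0083 over all genes.

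CAT stood at 54.6, 56.0 and 48.7 CPM with shCtrl, 67.5, 64.6 and 62.4 CPM with shPDK1#1, and shPDK1#2 libraries held 79.2, 78.5 and 82.2 CPM. The 3 groups did not overlap, with shPDK1#2 highest and shCtrl lowest. The log2 fold change was 0.28 ± 0.067 (adjusted p 0.016) with shPDK1#1 and 0.59 ± 0.066 (adjusted p 1.32e-07) with shPDK1#2, and the 2 hairpins themselves differed by 0.30 ± 0.064 (adjusted p 0.00114; edgeR quasi-likelihood test throughout). TXNIP stood at 57.7, 57.3 and 62.4 CPM with shCtrl, 72.02, 70.5 and 70.7 CPM with shPDK1#1, and shPDK1#2 libraries held 75.4, 72.6 and 79.2 CPM. Every hairpin library lay above every control library, with log2 fold changes of 0.27 ± 0.063 (adjusted p 0.015) and 0.36 ± 0.062 (adjusted p 8.03e-05). Neither shPDK1#1 call held through every fit with 1 library left out. In those fits the log2 fold change was 0.23 to 0.32 for CAT and 0.24 to 0.30 for TXNIP. CAT lost its call without shCtrl replicate 3 or shPDK1#1 replicate 1, and TXNIP without any of 4 libraries, and without shPDK1#1 replicate 1 no member passed.

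**Figure D4:**
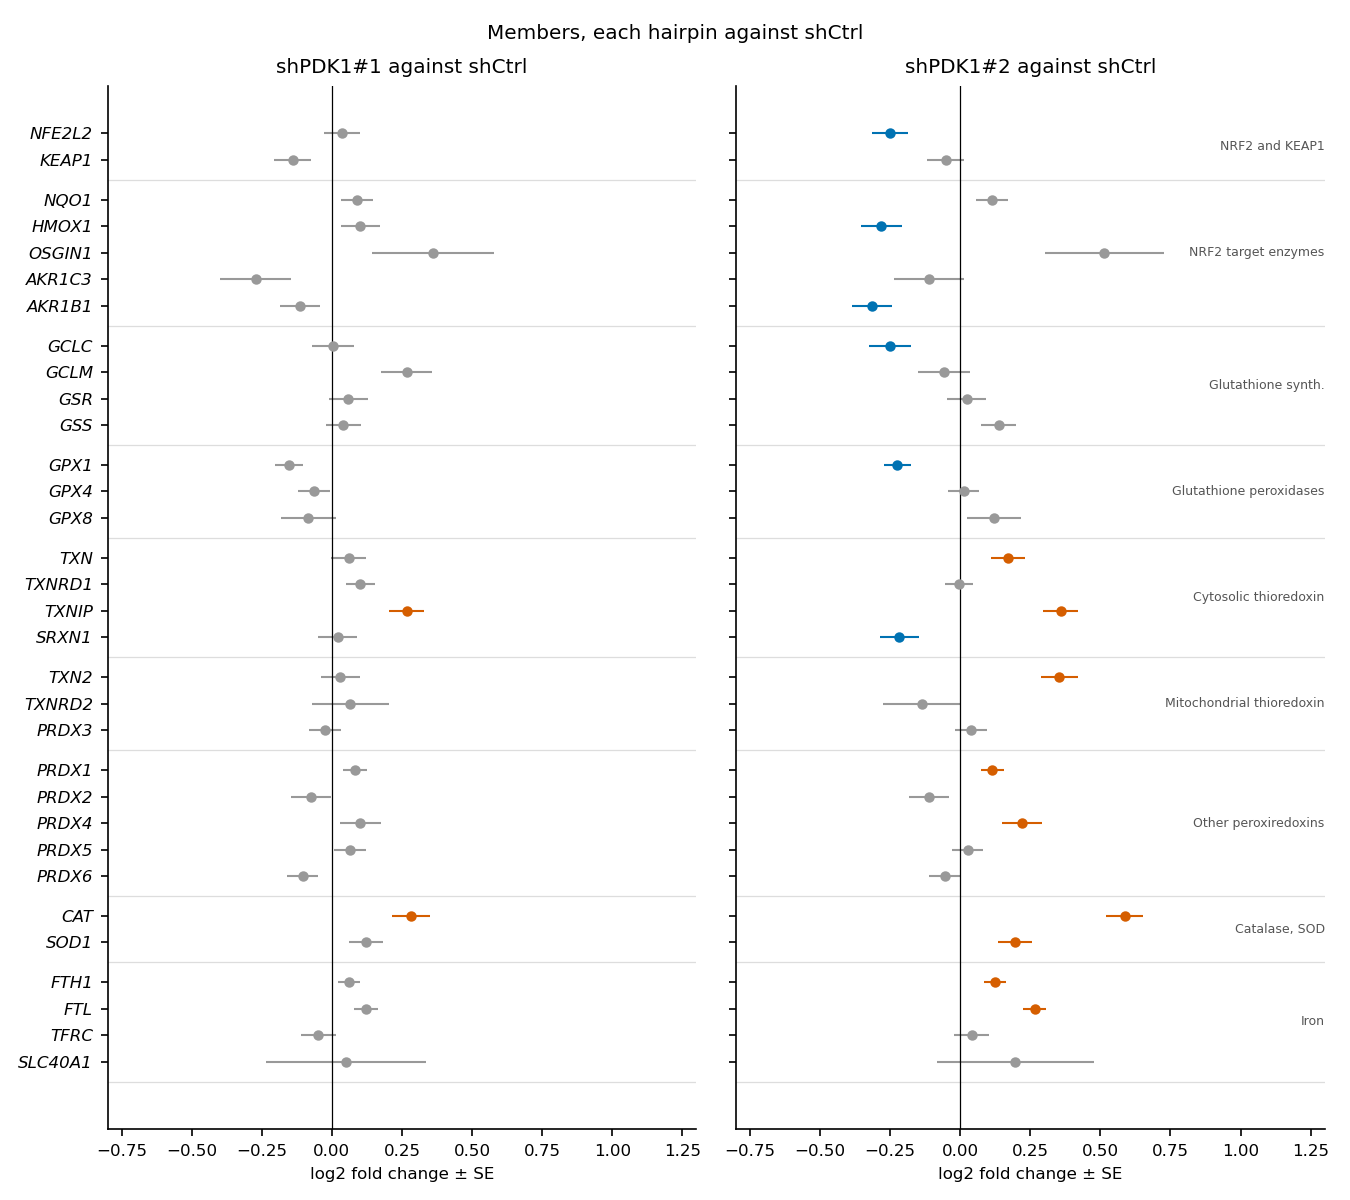
Log2 fold change ± SE of each tested member for shPDK1#1 (left) and shPDK1#2 (right) against the same 3 shCtrl libraries; orange passed higher, blue passed lower, grey did not pass. CAT and TXNIP are orange in both panels, and the right panel also shows NFE2L2, HMOX1 and AKR1B1 in blue.

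With shPDK1#2, the transcript of NRF2 itself and some of its targets fell, while other targets did not pass. Those that did not pass against shCtrl were NQO1 (log2 fold change 0.11), OSGIN1 (0.51), AKR1C3 (-0.11), GCLM (-0.058) and TXNRD1 (-0.003). NFE2L2 stood at 80.7, 82.2 and 93.3 CPM with shCtrl, at 92.2, 85.9 and 84.7 CPM with shPDK1#1, and shPDK1#2 libraries held 71.8, 74.8 and 68.1 CPM. The shPDK1#2 libraries lay below all others (log2 fold change -0.25 ± 0.065 against shCtrl, adjusted p 0.00472, lost without shCtrl replicate 3), and shPDK1#1 did not pass (0.037 ± 0.064). KEAP1 stood at 84.1, 81.8 and 92.0 CPM with shCtrl, 70.4, 83.0 and 79.8 CPM with shPDK1#1, and shPDK1#2 libraries held 80.7, 86.5 and 81.3 CPM. The 3 groups overlapped, and KEAP1 passed in neither comparison. HMOX1 stood at 53.2, 47.6 and 51.6 CPM with shCtrl, 54.8, 55.4 and 53.1 CPM with shPDK1#1, and shPDK1#2 libraries held 40.4, 40.9 and 43.96 CPM. It too was lowest in all 3 shPDK1#2 libraries (-0.28 ± 0.072, adjusted p 0.00468). HMOX1 averaged 50.8 CPM in these shCtrl spheres and 338 CPM in the OSC spheres of the other table. The tables were normalized separately, no test was run across them, and what separates these levels was not tested.

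AKR1B1, aldose reductase, stood at 78.6, 70.7 and 75.04 CPM with shCtrl and at 56.2, 62.1 and 62.3 CPM with shPDK1#2 (-0.31 ± 0.071, adjusted p 0.0016). GCLC stood at 50.4, 50.3 and 46.8 CPM with shCtrl and 39.95, 40.05 and 44.4 CPM with shPDK1#2 (-0.25 ± 0.075, adjusted p 0.0146). The groups did not overlap, but the GCLC call was lost on leaving out any of 4 libraries. GPX1 stood at 192, 198 and 182 CPM and at 156, 172 and 162 CPM (-0.22 ± 0.049, adjusted p 0.00107), with 25.8% of its stretches shared with an overlapping gene and GPX1P1. In GPX1 too the control libraries were the higher ones. SRXN1 fell by 0.22 on the log2 scale, a call lost on leaving out any of 4 libraries.

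Mitochondrial thioredoxin and ferritin chains rose with shPDK1#2. TXN2 stood at 56.7, 53.4 and 52.8 CPM with shCtrl, 53.5, 53.7 and 58.8 CPM with shPDK1#1, and shPDK1#2 libraries held 66.2, 69.9 and 72.2 CPM. The shPDK1#2 libraries alone stood above (0.35 ± 0.067, adjusted p 0.000215), while TXNRD2 and PRDX3 did not pass (-0.14 ± 0.14 and 0.038 ± 0.057). FTL stood at 343.5, 363 and 375 CPM with shCtrl, at 392, 409 and 376 CPM with shPDK1#1, and shPDK1#2 libraries held 424.5, 445 and 430 CPM, which did not overlap the control (0.27 ± 0.042, adjusted p 2.1e-05). FTH1 rose by 0.12 on the log2 scale. PRDX4 stood at 56.1, 65.5 and 54.5 CPM with shCtrl and at 68.5, 65.1 and 72.4 CPM with shPDK1#2, which overlapped (0.22 ± 0.072, adjusted p 0.0229). SOD1 (0.19), TXN (0.17) and PRDX1 (0.11) were also higher, the last 2 with overlapping libraries. The calls of PRDX4, SOD1, TXN, PRDX1 and FTH1 were each lost on leaving out any of several single libraries, and those of TXN and PRDX1 also under library-size scaling. TFRC did not pass with either hairpin, with means of 74.2, 71.9 and 76.3 CPM across shCtrl, shPDK1#1 and shPDK1#2.

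Compared directly, the hairpins differed at 8 of 32 members, where 16.3% of all genes did (6.5% higher, 9.78% lower with shPDK1#2) and 21.4% of those with a mean of at least 10 CPM, against 26.7% of members at that level. Lower with shPDK1#2 than with shPDK1#1 were HMOX1 (-0.38), GCLM (-0.33), NFE2L2 (-0.29), GCLC (-0.25) and SRXN1 (-0.24), and higher were TXN2 (0.32), CAT (0.30) and FTL (0.14). GCLM differed between the hairpins without passing against the control in either: it stood at 34.5, 47.6 and 40.5 CPM with shCtrl, 51.5, 51.3 and 45.5 CPM with shPDK1#1, and shPDK1#2 libraries held 38.7, 38.1 and 41.2 CPM. SRXN1 stood at 60.6, 63.3 and 63.0 CPM with shPDK1#1, and shPDK1#2 libraries held 51.4, 49.4 and 58.03 CPM. PDK1 too was lower with shPDK1#2 than with shPDK1#1 (-0.50 ± 0.091), and the strength and off-target effects of the hairpins cannot be told apart. The summed level of 5 leukocyte markers was 22.6–24.6 CPM in shPDK1#2 libraries, where shPDK1#1 libraries held 38.2–40.5 and shCtrl libraries 39.0–45.5 CPM, with PTPRC and CD3D at or under 3 counts, and its part in these results was not tested.

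Of the NRF2 partners and further targets, 7 of 26 passed with shPDK1#2 (26.9%, near the 26.2% of all genes), 5 lower and 2 higher. MAFK stood at 86.8, 87.7 and 97.2 CPM with shCtrl and at 89.9, 94.1 and 91.8 CPM with shPDK1#1, and shPDK1#2 libraries held 48.4, 59.9 and 59.8 CPM (-0.69 against shCtrl). MAFF fell by 0.65 and BACH1 by 0.70 on the log2 scale. MAFG (-0.60), the remaining small MAF gene, and SQSTM1 (-0.45), both named after their values were seen, were the other genes that were lower, while ME1 (0.26), malic enzyme, and PIR (0.50), named likewise, were higher. With shPDK1#1, the 1 gene of that list to pass was SLC7A11, the cystine carrier (-0.27).

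Among other redox enzymes, SOD2, the mitochondrial manganese superoxide dismutase, stood at 62.7, 71.0 and 67.8 CPM with shCtrl, at 54.5, 53.5 and 55.2 CPM with shPDK1#1, and shPDK1#2 libraries held 46.6, 45 and 46.7 CPM. The control libraries were the highest and the shPDK1#2 libraries the lowest, with log2 fold changes of -0.30 and -0.54 against shCtrl and -0.24 between the hairpins. TXNDC5, a thioredoxin-domain protein of the endoplasmic reticulum, fell by 0.17 and 0.22, and GLRX rose by 0.29 and 0.43 on the log2 scale with shPDK1#1 and shPDK1#2. With SESN1 (0.62) and GLRX5 (0.27), a glutaredoxin of mitochondrial iron-sulfur assembly, higher with shPDK1#2, this made 5 of 41 genes for that hairpin (12.2%, where 26.2% of all genes passed) and 3 of 41 for shPDK1#1 (7.32%, where 3.06% did).

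Of the further iron genes, 6 of 27 passed with shPDK1#2 (22.2%, where 26.2% of all genes did), 2 higher and 4 lower. PCBP1 (0.20), an iron chaperone, rose, and STEAP3 (-0.52), STEAP1 (-0.41), SLC39A14 (-0.35), a metal importer, and CYBRD1 (-0.20), named after its value was seen, fell. With shPDK1#1, edgeR's quasi-likelihood test called 0 of the 27 and DESeq2 also 0, and 5 had an unadjusted p under 0.05.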

How the data were processed

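RNA from 15 libraries of 143B cells (3 in each of 5 groups; total RNA, NEBNext Ultra kit) was sequenced as paired-end reads by the authors, who trimmed with Trimmomatic (0.39), checked with FastQC (0.12.1), aligned with STAR (2.7.11a) to GRCh38.p14 and deposited RSEM (1.3.3) expected counts per gene in 2 tables, 1 for OSC and non-OSC and 1 for the hairpins. Whether counting used strand is not given in the sources used here. Column names marked 2D, 3D and con were taken as non-OSC, OSC and shCtrl. About 6.85% and 6.92% of values were not whole, and all were rounded. Totals were 7992499–11256536 counts, and this depth limits low genes.

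Each table was fitted on its own in edgeR (4.0.16, R 4.3.3) with TMM factors, a filter by group (14287 and 14574 genes kept), glmQLFit and glmQLFTest, with Benjamini-Hochberg adjustment over all genes and a threshold of 0.05. The 9 hairpin libraries shared 1 fit. An exact permutation test of 3 against 3 libraries cannot give a two-sided p under 0.1 and was not used. On simulated counts with 200 changed genes, 183 were recovered and 10 others called for OSC against non-OSC, and 183 and 15 for shPDK1#2 against shCtrl. Between the hairpins the numbers were 187 and 18. For shPDK1#1 against shCtrl, where no change was simulated, 1 gene was called. In the real OSC comparison 63.9% of genes passed, so the simulation does not test scaling or error rates where most genes move. DESeq2 (1.42.0), library size alone, other filters, a replicate block, fits of the compared groups alone and leaving out each library were alternatives. Adding the reads of genes that share sequence was chosen after seeing the data. Same-numbered libraries deviated together with correlations of -0.054 to 0.095, and differently numbered ones with -0.076 to 0.046. No pairing was stated and none was used in the main fit, but these small values cannot exclude it.

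Members and gene lists were chosen with earlier results of these data known. Values per library are given for NFE2L2 and KEAP1 and for up to 10 members per comparison with the largest absolute log2 fold change among those that passed with a mean of at least 10 CPM, and up to 3 rises and 3 falls are named per further list. One symbol of the NRF2 list had 2 identifiers and was left out. Sequences came from RefSeq windows and GENCODE 44 transcripts. Some items are not reported here.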

Additional observations from a re-analysis of the deposited data

Results flagged for a closer look

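In 8 members the effects of the hairpins differed when shPDK1#2 was tested directly against shPDK1#1 (edgeR quasi-likelihood test, Benjamini-Hochberg adjusted over all genes, 3 libraries each). The log2 difference was -0.38 for HMOX1 (adjusted p 0.000343), -0.33 for GCLM (0.014), -0.29 for NFE2L2 (0.00222), -0.25 for GCLC (0.0196) and -0.24 for SRXN1 (0.0191), all lower with shPDK1#2. It was 0.14 for FTL (0.0173), 0.30 for CAT (0.00114) and 0.32 for TXN2 (0.000906), all higher with shPDK1#2. Without 1 of several libraries the differences of GCLM, GCLC, SRXN1 and FTL no longer passed, while those of HMOX1, NFE2L2, CAT and TXN2 passed with any 1 library left out.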

How the results depend on the processing

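Leaving out 1 library at a time, the number of members called was 23–26 for OSC against non-OSC, 0–2 for shPDK1#1 against shCtrl (0 without shPDK1#1 replicate 1), 8–15 for shPDK1#2 against shCtrl (8 without shCtrl replicate 1) and 4–8 between the hairpins (5 without shPDK1#1 replicate 3 or shPDK1#2 replicate 1, 4 without shPDK1#2 replicate 2). Under the other settings the counts were 25–27, 2, 13–15 and 8–9, and no value reversed. With a replicate block they were 27, 2, 15 and 8. The block added the NQO1 call for OSC against non-OSC (adjusted p 0.0451), as did library size alone (0.0302). The PRDX1 call there was lost under library size alone (0.138) and with no filter (0.0839). For shPDK1#2 against shCtrl, TXN was lost under DESeq2 (0.0678) and library size alone (0.0588), and PRDX1 under library size alone (0.0649). AKR1B1 was called between the hairpins with no filter (0.0486) or with at least 10 counts in every library (0.046). The cause of these changes was not tested. The 3 libraries a group and 1 cell line limit all comparisons, and SOD3, AKR1C1 and AKR1C2 were too low to test.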

Other observations

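Selenoproteins carry selenocysteine, as the tested members GPX1, GPX4, TXNRD1 and TXNRD2 do, and all 4 of those were lower in OSC than in non-OSC. Of 15 further selenoprotein-list genes tested there, 10 passed (66.7%, where 63.9% of all genes did), 6 higher and 4 lower. The named ones have a mean of at least 10 CPM. SELENOS stood at 25.3, 29.7 and 28.4 CPM in non-OSC and at 62.8, 65.6 and 65.6 CPM in OSC libraries, without overlap (log2 fold change 1.22). SELENOK (1.08) and SELENOM (1.06) also rose. SELENOH (-0.41), SELENOO (-0.35) and SEPHS2 (-0.31), which makes the selenium donor, fell. With shPDK1#2, SELENOS (-0.35) and SELENOI (-0.21) were lower, 2 of 15 (13.3%, where 26.2% of all genes passed). With shPDK1#1, edgeR's quasi-likelihood test and DESeq2 each called 0 of 15, and 0 had an unadjusted p under 0.05.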
